A study of Mus musculus with 10 samples.

Results

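Peroxisomal beta-oxidation was examined through 8 genes, Acox2, Acox3, Ehhadh, Hsd17b4, Acaa1a, Acaa1b, Scp2 and Amacr, of the 47729 genes in the count table. Acox2 was chosen by the difference between Nrf2 and control eyes in these libraries, so its difference is given as a description with no test. The other 7 were chosen by their place in the pathway, with earlier results of these data known. RNA was sequenced from the retinal pigment epithelium (RPE), the pigmented layer behind the retina, of 5 wild-type CD1 mice at P40. Both eyes of a mouse had received AAV-Best1-GFP, and 1 eye had also received AAV-Best1-Nrf2, which carries the human coding sequence of the stress-response transcription factor Nrf2. AAV, adeno-associated virus, served to deliver the genes, and the human Best1 promoter drives expression in the RPE. The Nrf2 eyes thus received an additional vector, and there was no group with a second vector of another kind.

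Peroxisomes shorten fatty acids that mitochondria handle poorly, such as very long, methyl-branched and dicarboxylic acids, and the side chain of bile acid precursors. An acyl-CoA oxidase takes the first step and passes electrons to oxygen, which makes hydrogen peroxide, a bifunctional enzyme then hydrates and dehydrogenates the product, and a thiolase cuts off acetyl-CoA or propionyl-CoA. Acox2 acts on branched chains and bile acid intermediates, and Acox3 acts on branched chains such as that of pristanic acid. The RPE takes up lipid-rich tips of photoreceptor outer segments every day and uses fatty acid oxidation as a source of energy.

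The libraries held 12298404 to 27310638 counts, and a count of 0 allowed up to 0.110 to 0.244 CPM (counts scaled to the library total), a limit for counting error only. Nfe2l2, the mouse gene of Nrf2, had 79.3 to 110 CPM in control eyes and 267 to 414 CPM in Nrf2 eyes. These counts can include reads of the human sequence. Of 10 RPE markers, 9 lay well above the floor in all libraries, while Best1 itself had 0.119 to 1.503 CPM. The summed level of the RPE markers was 20694 to 44852 CPM in control eyes and 10061 to 28194 CPM in Nrf2 eyes. Of the 10, 6 were lower in the Nrf2 eyes at an edgeR adjusted p under 0.05, beside 2.73% of all tested genes. Of 11 microglia markers 10 were higher in the same test, beside 3.60% of all tested genes. Their sums were 161 to 285 CPM in control eyes and 411 to 2068 CPM in Nrf2 eyes. Rod markers ranged from 39.8 to 19514 CPM in sum. The 2 highest sums, 19514 and 7531 CPM, came from the control and the Nrf2 eye of mouse 2. All 9 tested rod markers had a log2 fold change below 0 (median -1.25). None was called in edgeR, and 1 was called by DESeq2, beside 9.44% of all genes tested there. Mueller glia markers summed to 2115 to 4213 CPM in control eyes and 1086 to 1822 CPM in Nrf2 eyes, which did not overlap. Of these 6 genes 1 was called lower, beside the same 2.73% of all tested genes. The called gene was Rlbp1, which is also on the RPE list, and the other 5 had fold changes above 0 that were not called. Muscle markers summed to 54.1 to 106 CPM in control eyes and 5.46 to 647 CPM in Nrf2 eyes, and none of 8 was called by edgeR or DESeq2 or had an unadjusted p under 0.05. No marker of these 5 lists was at 0 in all libraries. In such bulk samples, fewer cells of a type and less RNA per cell cannot be told apart.

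Acox2 (ENSMUSG00000021751, chromosome 14, 8225511 to 8259353, mm10) was barely present in control eyes and abundant in Nrf2 eyes. Its level in the control eyes of mice 1 to 5 was 1.99, 0.801, 0.908, 2.51 and 1.06 CPM, from 13 to 42 counts per library. In the Nrf2 eyes of the same mice it was 79.5, 101, 86.2, 80.1 and 75.5 CPM, from 985 to 2487 counts. The groups lay far apart, and the Nrf2 eyes differed little from each other. The mean was 1.45 ± 0.754 CPM in control eyes and 84.5 ± 10.1 CPM in Nrf2 eyes (SD, n = 5 each). The fitted log2 fold change was 5.89 (SE 0.35), a 59.4-fold difference that ranked 22 of 16362 tested genes. Within the mice the log2 difference ran from 4.88 in mouse 4 to 6.79 in mouse 2, and the control values varied over a wider ratio than the Nrf2 values.

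**Figure D1:**
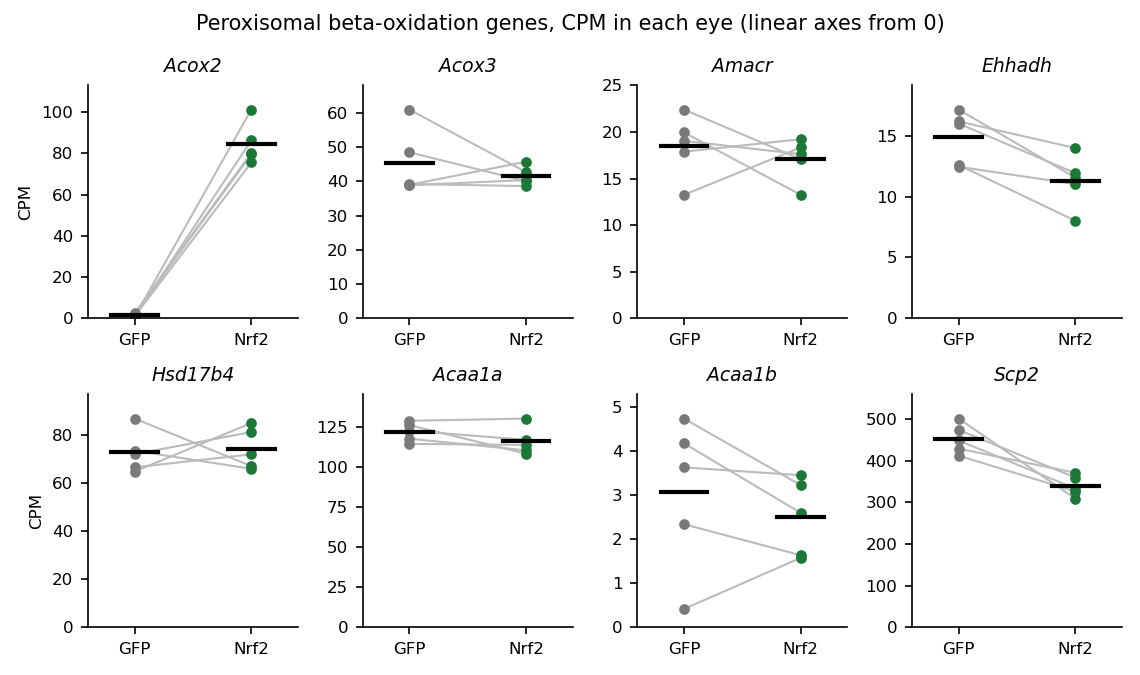
CPM of the 8 genes in each eye, on linear axes that start at 0. Points are eyes, grey lines join the GFP control and the Nrf2 eye of a mouse, and black bars are means. Acox2 goes from at most 2.51 CPM to at least 75.5 CPM, and Scp2 is the other gene whose groups do not overlap.

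The Nrf2 eye with the most Acox2, that of mouse 2, was also the one with the most rod RNA. With the rod level as a covariate the fold change of Acox2 was 6.12 on the log2 scale. The microglia marker sum was 973, 411, 757, 1226 and 2068 CPM in the Nrf2 eyes of mice 1 to 5. The part of the microglia, RPE, Mueller glia and muscle marker levels in the Acox2 difference was not tested.

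A short stretch near the start of Acox2 is shown because it holds the 9 letters TGACNNNGC, the core of the antioxidant response element that Nrf2 is known to bind as a dimer with small Maf proteins. RefSeq on GRCm38.p6 gave windows of 300 bases, from 250 before a start to 50 after it, for 6 of the 8 genes, and both strands were searched. Matches were found in the windows of Acox2 (chr14:8259014-8259042), Ehhadh (chr16:21787981-21788009) and Scp2 (chr4:108118535-108118563), which are shown with 10 bases on each side. All are written 5′ to 3′ on the minus strand, that of the genes, and capitals mark the match, which in Acox2 reads TGACTCAGC on the opposite strand.
Acox2: aagcctggaaGCTGAGTCAtgccagagtt
Ehhadh: gttggtggtgTGACCCAGCagtttggctt
Scp2: gccccgccccTGACGCTGCggccccgccc

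The Acox2 match spans 8259024 to 8259032. Its far end lies 13 bases before a RefSeq start at 8259019 and 193 bases before another at 8258839. GENCODE M21 places the start of the gene farther out, at 8259353, so that the match and both RefSeq starts lie inside the gene, in the untranslated part of the first exon of its longer transcript (8258822 to 8259353), and the far end is 321 bases after the GENCODE start. The far end of the Ehhadh match was 165 bases before its RefSeq start, in no GENCODE transcript of the gene, and the Scp2 match lay across a RefSeq start, inside introns of GENCODE transcripts that start farther out. The windows of Acox3, Acaa1a and Acaa1b held no match to these letters, and Hsd17b4 and Amacr were not matched to a window. The Acaa1a window was set on a RefSeq start at 119341294, inside the gene. Its GENCODE start, at 119339676, lay outside that window and was not searched. Over all 32851 windows 12.4% held a match, as did 13.99% of 27025 genes with a window and 14 of 96 genes (14.6%) of the 10 pathway lists described later. A match describes letters only, and its part in the level of any of these genes was not tested.

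Acox2 was compared with another acyl-CoA oxidase in the same eyes. Acox3 (ENSMUSG00000029098, chromosome 5, 35583040 to 35615352), the pristanoyl-CoA oxidase, had 60.9, 39.2, 38.8, 38.9 and 48.4 CPM in control eyes and 42.7, 38.6, 40.4, 45.7 and 40.01 CPM in Nrf2 eyes. The groups overlapped, and the 2 highest values were control eyes. The fitted log2 fold change was -0.12 (SE 0.12, edgeR adjusted p = 0.695), and there was a higher Nrf2 eye in 2 of 5 mice. Acoxl, a gene related to the oxidases by sequence, had at most 0.638 CPM in any eye and was too low to be tested.

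Compared by level per exon length, the order of Acox2 and Acox3 differed between the groups. On the FPKM scale, which is TMM-scaled CPM per kilobase of exon, Acox2 was 0.101 ± 0.057 times Acox3 in control eyes and 6.38 ± 1.08 times Acox3 in Nrf2 eyes (SD, n = 5 each). In single eyes the ratio ran from 0.0636 to 0.2004 in controls and from 5.45 to 8.15 in Nrf2 eyes. Acox3 was thus the higher of the pair in all control eyes and Acox2 in all Nrf2 eyes. This ratio follows from the Acox2 difference itself and depends on the exon length, since the merged exons of Acox3 hold 11521 bases and its longest transcript 3976.

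Amacr (ENSMUSG00000022244, chromosome 15, 10981756 to 10996626) encodes the racemase that turns branched-chain acyl-CoA into the stereoisomer the oxidases accept. It had 19.9, 19.04, 17.9, 22.4 and 13.3 CPM in control eyes and 13.3, 17.6, 19.2, 17.1 and 18.3 CPM in Nrf2 eyes. The groups overlapped over most of their range, and the Nrf2 eye was higher in 2 of 5 mice. The log2 fold change was -0.12 (SE 0.17, edgeR adjusted p = 0.7999).

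The bifunctional enzymes carry out the steps after the oxidase. Ehhadh (ENSMUSG00000022853, chromosome 16, 21761287 to 21787807), the L-bifunctional enzyme, had 16.2, 12.4, 15.99, 17.1 and 12.6 CPM in control eyes and 13.98, 11.02, 11.9, 11.5 and 8.01 CPM in Nrf2 eyes. The Nrf2 eye was the lower one in 5 of 5 mice, although the groups overlapped. The fitted log2 fold change was -0.42 (SE 0.12), which did not pass the test (adjusted p = 0.180). Hsd17b4 (ENSMUSG00000024507, chromosome 18, 50128201 to 50196269), the D-bifunctional enzyme used for branched chains and bile acid precursors, had 86.7, 73.3, 71.9, 64.7 and 66.4 CPM in control eyes. In Nrf2 eyes it had 66.9, 65.8, 81.1, 84.8 and 71.8 CPM. The groups overlapped over most of their range, and the log2 fold change was 0.01 (SE 0.11, edgeR adjusted p = 0.973).

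The thiolases close the cycle. Acaa1a (ENSMUSG00000036138, chromosome 9, 119339676 to 119350299), the main straight-chain thiolase, had 122, 117, 129, 126 and 114 CPM in control eyes and 117, 110, 130, 108 and 114 CPM in Nrf2 eyes. The groups overlapped, with a log2 fold change of -0.09 (SE 0.06, edgeR adjusted p = 0.682). It shares 290 exon bases with Myd88 on the other strand. Its close copy Acaa1b (ENSMUSG00000010651, chromosome 9, 119148023 to 119157093) had 4.74, 3.64, 0.419, 4.18 and 2.34 CPM in control eyes and 3.23, 3.46, 1.58, 2.60 and 1.64 CPM in Nrf2 eyes. The fitted log2 fold change was -0.11 (SE 0.45, edgeR adjusted p = 0.940), and mouse 3 alone had the higher Nrf2 eye, by 1.71 on the log2 scale. The longest open reading frames of the pair were identical at 96.5% of aligned bases, so reads may be shared and the low Acaa1b values are uncertain.

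Scp2 (ENSMUSG00000028603, chromosome 4, 108043839 to 108144998) gives rise to the branched-chain thiolase and, from another start, to sterol carrier protein 2, which gene counts do not separate. Its level was 429, 412, 474, 501 and 449 CPM in control eyes and 371, 326, 360, 309 and 333 CPM in Nrf2 eyes. All 5 Nrf2 eyes lay below all 5 control eyes. The log2 fold change was -0.43 (SE 0.10), which missed the threshold in edgeR (adjusted p = 0.0847) and passed it in DESeq2 (adjusted p = 0.0162).

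Of the 8 genes, all passed the filter on low counts, and 1 was called in edgeR at an adjusted p under 0.05, Acox2, which was chosen by this contrast. Among all tested genes 6.33% were called. None of the other 7 genes was called, 2 of them had an unadjusted p under 0.05, beside 19.1% of all tested genes, and 1 (Scp2) was called by DESeq2, beside 9.44% of the 19309 genes tested there. Their median log2 fold change was -0.12, beside -0.01 over all tested genes. Groups did not overlap for 2 of the 8 genes, Acox2 and Scp2, against 6.28% of all tested genes.

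Within each mouse, the difference in Acox2 exceeded that in each other gene in 5 of 5 mice. The mean excess over 5 mice ran from 5.86 (SE 0.40) on the log2 scale over Hsd17b4 to 6.30 (SE 0.33) over Scp2. Over Acox3 it was 5.99 (SE 0.36), with 4.71 in the mouse with the smallest excess and 6.83 in the mouse with the largest. These values are descriptions, since Acox2 was chosen for its difference.

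**Figure D2:**
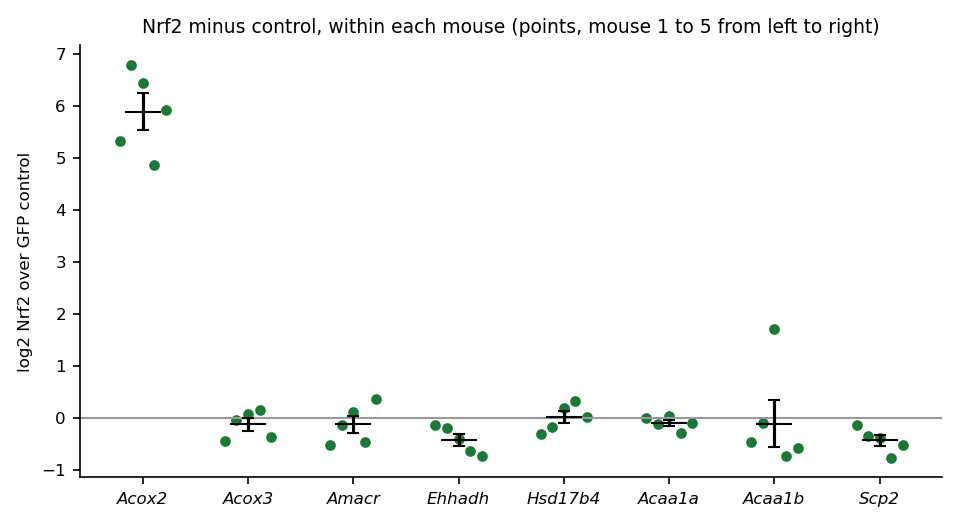
Log2 difference of CPM between the Nrf2 and the control eye of each mouse (points, mice 1 to 5 from left to right) for the 8 genes, with the fitted log2 fold change (black bar) and its SE over 5 mice (whiskers). Acox2 lies between 4.88 and 6.79, and the other genes lie around or slightly below 0 apart from Acaa1b in mouse 3.

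In control eyes Acox2 had the lowest level per length of the 8 genes. The mean FPKM over 5 control eyes was 131 ± 12.8 for Scp2, 27.7 ± 1.79 for Acaa1a and 21.4 ± 2.30 for Hsd17b4 (SD). Below these came Amacr with 7.13 ± 1.24, Ehhadh with 5.02 ± 0.776, Acox3 with 3.95 ± 0.810, Acaa1b with 1.55 ± 0.862 and Acox2 with 0.394 ± 0.202. Each gene exceeded the next in 5 of 5 control eyes, except that Acaa1b exceeded Acox2 in 4. A two-sided exact paired permutation test of the 6 neighbouring pairs without Acox2 gave p = 0.0625 for each (adjusted 0.0625). This is the smallest that 5 eyes allow, so no pair could pass 0.05. The pairs and their direction were also taken from the means of these same eyes, so the test cannot decide the order. The pair of Acaa1b and Acox2 was not tested, because Acox2 was chosen by its values. With the longest transcript as the length, Acox3 moved from position 6 to 4, ahead of Amacr and Ehhadh. In Nrf2 eyes Acox2 came in position 3, with 22.7 ± 2.69 FPKM, between Acaa1a with 26.2 ± 3.12 and Hsd17b4 with 21.7 ± 2.74, and the ranges of these 3 genes overlapped.

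**Figure D3:**
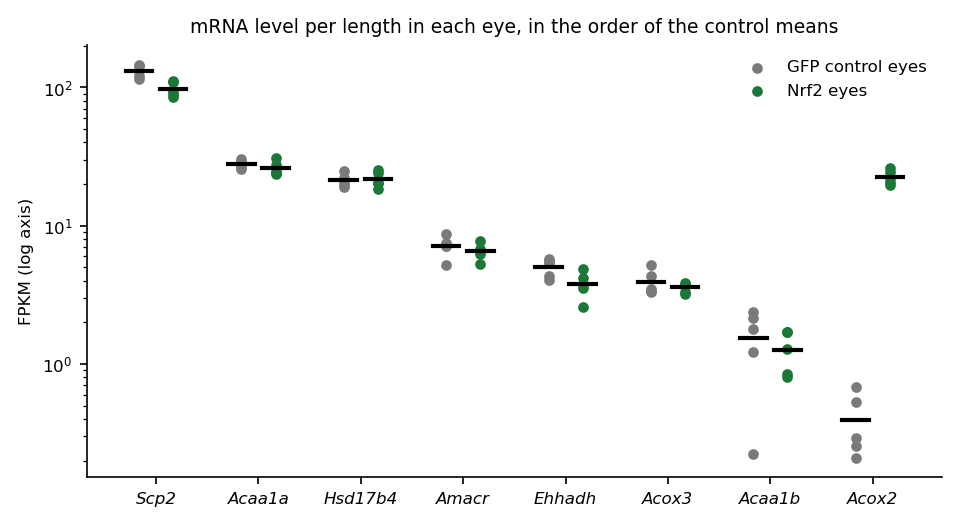
FPKM (TMM-scaled CPM per kilobase of exon, log axis) of the 8 genes in each eye, in the order of the control means, with control eyes in grey, Nrf2 eyes in green and means as black bars. Acox2 is the lowest gene in control eyes at 0.394 FPKM on average and lies beside Acaa1a and Hsd17b4 in Nrf2 eyes at 22.7 FPKM.

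The genes whose log2 CPM followed Acox2 most closely over the 10 libraries were Madcam1 (r = 0.998), Pard3bos3 (0.995), Gclm (0.994), Gstm1 (0.994) and Gm20658 (0.992). Gclm encodes a subunit of the enzyme that starts glutathione synthesis, Gstm1 a glutathione transferase, and Madcam1 an adhesion molecule. All 5 were higher in Nrf2 eyes, so r over the 10 libraries includes the difference between the groups. After each group mean was subtracted, the highest values were those of Mrpl33 (0.943), Six2 (0.926), Gm37242 (0.924), Madcam1 (0.921) and Greb1l (0.916), and Madcam1 was the gene in both lists. Nfe2l2 had r = 0.962 over the 10 libraries and -0.21 within groups. Among the pathway genes r within groups ran from -0.02 for Hsd17b4 to 0.50 for Acaa1b. The libraries share depth and composition effects, and these values carry no test.

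The wider pathway was described by 10 lists that hold 125 genes, with the 8 genes above among them, of which 105 were tested. Of these, 3 were higher in Nrf2 eyes, beside a background of 3.60% of all tested genes, and 13 were lower, beside a background of 2.73%. The 3 higher genes were Hsd3b7, Cat and Acox2, and Acox2 was chosen by this contrast, so its call is a description. With the rod level as a covariate 7 of the 105 genes were called, against 16 in the main fit. Over all tested genes 415 were called with that covariate, against 1036. The median log2 fold change of the 105 genes was -0.12.

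**Figure D4:**
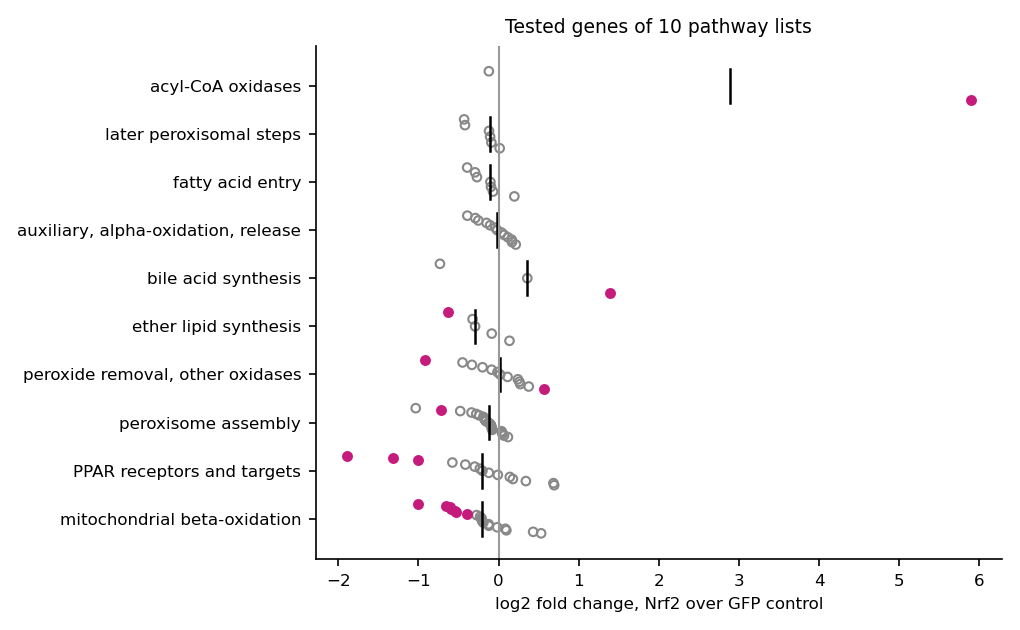
Log2 fold change (Nrf2 over GFP control, edgeR) of each tested gene in 10 lists, 1 line of points per list. Filled points had an adjusted p under 0.05, open points did not, and vertical bars are medians. Acox2 at 5.89 stands alone, Hsd3b7 and Cat are the other filled points above 0, and the filled points below 0 lie mostly in the PPAR and mitochondrial lists.

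Genes for bringing fatty acids into the peroxisome, and auxiliary enzymes for double bonds, alpha-oxidation and release of products, held no called gene. Of the 7 entry genes tested, 2 had an unadjusted p under 0.05 (19.1% of all tested genes did), none was called by DESeq2, and the median log2 fold change was -0.10. The most abundant were Abcd3, a fatty acyl-CoA transporter (-0.27, SE 0.11, edgeR adjusted p = 0.250), and Acsl1, an acyl-CoA synthetase (-0.09, SE 0.20, edgeR adjusted p = 0.857). Of the 13 auxiliary genes tested, 2 had an unadjusted p under 0.05 (against the same 19.1%), none was called by DESeq2, and the median was -0.02. Here the most abundant were Ech1, a dienoyl-CoA isomerase (-0.25, SE 0.05, edgeR adjusted p = 0.170), and Crot, a carnitine acyltransferase (-0.29, SE 0.27, edgeR adjusted p = 0.573).

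Bile acid synthesis, which uses Acox2 for side chain shortening in the liver, had 3 of 9 genes tested, of which 1 was called (6.33% of all tested genes were). Hsd3b7, the enzyme that modifies the sterol ring early in that pathway, had 29.4, 23.3, 31.4, 30.5 and 22.5 CPM in control eyes and 59.4, 77.8, 76.0, 79.8 and 68.6 CPM in Nrf2 eyes. All Nrf2 eyes lay above all control eyes. Hsd3b7 rose by 1.39 on the log2 scale (SE 0.11, edgeR adjusted p = 0.0011), in 5 of 5 mice. It shares 1717 exon bases with Gm49388 on the same strand, which had no counts. Cyp27a1, the sterol 27-hydroxylase, had a log2 fold change of -0.73 (SE 0.31, edgeR adjusted p = 0.176). The other genes of this list, among them the entry enzyme Cyp7a1 and the conjugating enzyme Baat, were too low to be tested, except Cyp7b1 with 0.36.

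Catalase, which breaks down the hydrogen peroxide that acyl-CoA oxidases make, was measured with other peroxide-handling genes and oxidases. Cat had 328, 269, 326, 301 and 270 CPM in control eyes and 347, 453, 510, 455 and 477 CPM in Nrf2 eyes. Its groups did not overlap, although the Nrf2 eye of mouse 1 was close to the control eyes. Cat rose by 0.57 on the log2 scale (SE 0.11, edgeR adjusted p = 0.0334). The call was lost when mouse 2, 3, 4 or 5 was left out (adjusted p from 0.0801 to 0.117), with log2 fold changes of 0.52 to 0.61. It was also lost with the rod level as a covariate (adjusted p = 0.160), where the log2 fold change was 0.54. Pxmp2, a peroxisomal membrane channel, had 15.8 to 30.3 CPM in control eyes and 7.44 to 15 CPM in Nrf2 eyes and fell by 0.92 (SE 0.08, edgeR adjusted p = 0.0065). Without the mouse as a block its adjusted p was 0.0649. Prdx5, a peroxiredoxin, had a log2 fold change of 0.02 (SE 0.18, edgeR adjusted p = 0.974). In total 1 gene rose and 1 fell of 13 tested, where 3.60% of all tested genes rose and 2.73% fell, with a median of 0.02.

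Of 21 genes for peroxisome assembly and division, 1 was called, a share near the 6.33% of all tested genes. Pex11a, a gene of peroxisome division, had 50.4, 36.4, 45.2, 42.7 and 44.5 CPM in control eyes and 25.2, 23.5, 33.1, 29.2 and 23.9 CPM in Nrf2 eyes. The groups did not overlap, and Pex11a fell by 0.72 on the log2 scale (SE 0.10, edgeR adjusted p = 0.0122). The fission genes Fis1 (0.05, SE 0.09, edgeR adjusted p = 0.879) and Mff (-0.09, SE 0.09, edgeR adjusted p = 0.732) were the most abundant of the list, whose median was -0.13. Of the 5 ether lipid genes 1 was called, beside the same 6.33%. Tmem189, which makes plasmalogens, fell by 0.63 (SE 0.10, edgeR adjusted p = 0.0144). It shares 694 exon bases with Gm20431 on the same strand and 312 with Cebpb on the other, so its counts are uncertain. The call was lost without mouse 2 (adjusted p = 0.0659, log2 fold change -0.59). It was also lost with the rod level as a covariate (adjusted p = 0.08004, log2 fold change -0.54). Far1, a fatty acyl-CoA reductase, had -0.32 (SE 0.05, edgeR adjusted p = 0.0750).

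Receptors of the PPAR family are known to turn on genes of peroxisomal and mitochondrial fatty acid oxidation. Of 15 tested genes of that list, 3 fell (2.73% of all tested genes did) and none rose (3.60% did), with a median of -0.20. Angptl4, a secreted inhibitor of lipoprotein lipase, had 30.1 to 72.9 CPM in control eyes and 7.44 to 25.6 CPM in Nrf2 eyes. Its groups did not overlap, and it fell by 1.89 (SE 0.19, edgeR adjusted p = 0.0015). Acot1, an acyl-CoA thioesterase, fell by 1.32 (SE 0.08, edgeR adjusted p = 0.0014), with 28.3 ± 13.1 CPM in control eyes and 11.4 ± 5.20 CPM in Nrf2 eyes (SD, n = 5 each). Acot1 has close copies in its family that could share reads.

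Ppara, the receptor gene itself, fell by 1.01 (SE 0.09, edgeR adjusted p = 0.0204), with 8.36 ± 3.25 CPM in control eyes and 4.34 ± 2.23 CPM in Nrf2 eyes. Its call was lost when any 1 mouse was left out (adjusted p from 0.0507 to 0.0845), with log2 fold changes of -1.03 to -0.92. It was also lost with the rod level as a covariate (adjusted p = 0.0783), where the log2 fold change was -1.06. Without the mouse as a block 1 gene of the list was called, Angptl4. Cpt1a, the carnitine palmitoyltransferase of the mitochondrial outer membrane, had -0.01 (SE 0.14, edgeR adjusted p = 0.986). Rxra, the receptor that pairs with the PPARs, had 0.18 (SE 0.09, edgeR adjusted p = 0.407).

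**Figure D5:**
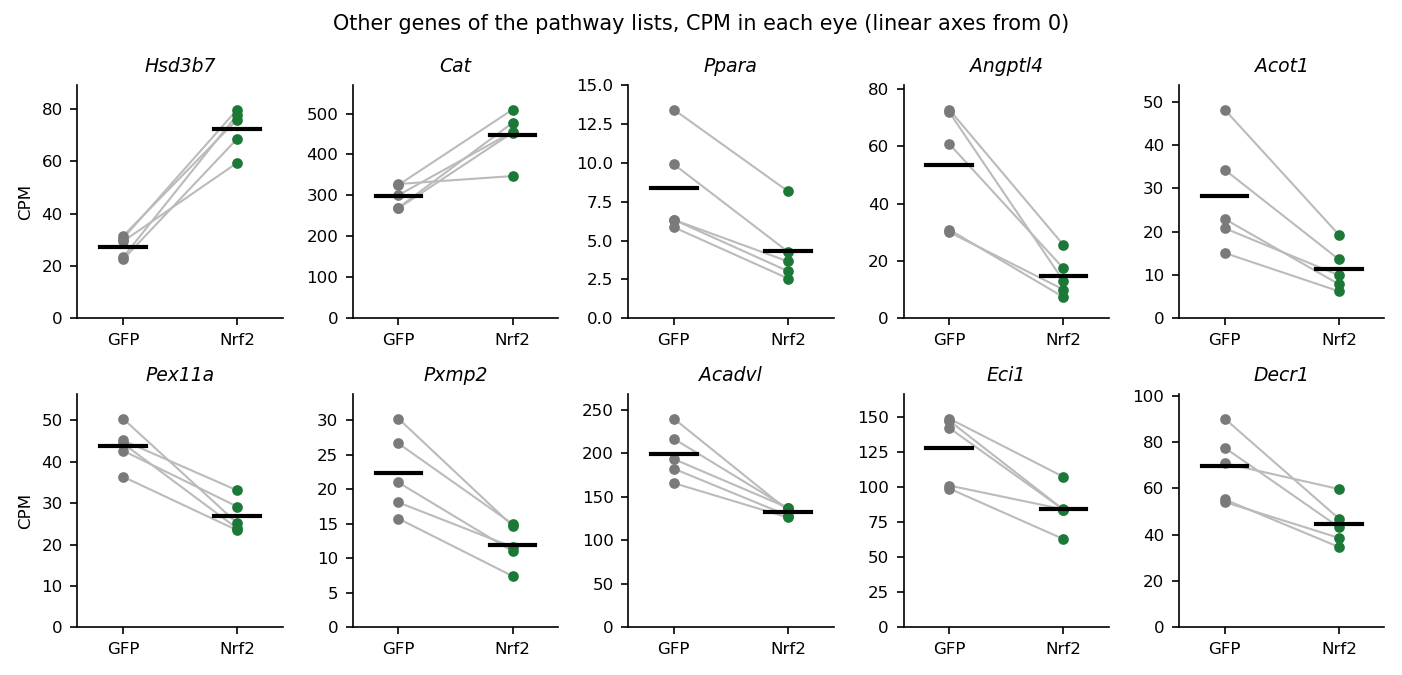
CPM in each eye of 10 other genes named from the lists, on linear axes from 0, drawn as in the plot of the 8 genes. Hsd3b7 and Cat are higher in the Nrf2 eyes, and the other 8 genes are lower in the Nrf2 eye of each mouse.

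The mitochondrial beta-oxidation genes served as a comparison for the same chemistry in the other organelle. Of 20 tested genes, 7 fell, beside 2.73% of all tested genes, and none rose, beside 3.60%, with a median of -0.21. Acad11, an acyl-CoA dehydrogenase, fell by 1.00 (SE 0.26, edgeR adjusted p = 0.0324), Decr1, a dienoyl-CoA reductase, by 0.65 (SE 0.12, edgeR adjusted p = 0.0210), and Eci1, an enoyl-CoA isomerase, by 0.61 (SE 0.09, edgeR adjusted p = 0.0141). Acadvl, the very long chain dehydrogenase, fell by 0.59 (SE 0.05, edgeR adjusted p = 0.0087), with 166 to 240 CPM in control eyes and 126 to 137 CPM in Nrf2 eyes. It shares 1151 exon bases with Dvl2 on the other strand. The carnitine carrier Slc25a20, the electron carrier subunit Etfb and the thiolase Acaa2 fell by 0.54 (SE 0.07), 0.53 (SE 0.10) and 0.40 (SE 0.05), with adjusted p from 0.0196 to 0.0433. The count of 7 was sensitive to the fit. The count was 1 without the mouse as a block and 1 with the rod level as a covariate. It was 0 without mouse 2, 1 without mouse 3, 2 without mouse 4, and 3 without mouse 1 or mouse 5. Lower calls over all tested genes dropped as well, from 447 in the main fit to 232 without the block and 132 with the rod covariate. With a mouse left out they were 173 (mouse 2) to 292 (mouse 1). The median log2 fold change of the list was -0.22 without the block, -0.27 with the rod covariate and -0.19 without mouse 2, and over all fits that left out a mouse it lay between -0.24 (mouse 5 left out) and -0.11 (mouse 1 left out). The RPE marker sum was lower and the microglia sum higher in the Nrf2 eyes, as given above. The Mueller glia sum was lower too, and its called gene, Rlbp1, is also on the RPE list. All 9 tested rod markers had a log2 fold change below 0, with none called in edgeR. Beyond the fit with the rod covariate, the part of these cell types in the mitochondrial and PPAR lists was not tested.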

How the data were processed

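The authors deposited 1 table of unnormalized counts, whole numbers with an Ensembl gene in each line. The authors aligned reads with STAR to mm10 and counted them with featureCounts in bcbio-nextgen, and in parallel estimated counts with Salmon (0.8.2 in the submitters' processing notes) for DESeq2. Which table was deposited and the strand setting are not given in the sources used here. Symbols, lengths and positions came from GENCODE M21, for 99.1% of gene identifiers. There were 0 columns of other samples.

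Eyes were paired by the animal number in the labels. Deviations from group means correlated with r from 0.19 to 0.71 between the eyes of a mouse, and with a median of -0.08 (-0.42 to 0.28) between mice, so the ranges overlap. Libraries of the 2 sequencing runs named in the labels could not be told apart, and no 2 libraries agreed within sampling noise (smallest chi-square per degree of freedom 38.5).

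The test was that of edgeR 4.0.16, run in R 4.3.3 (filterByExpr, TMM, quasi-likelihood F test, mouse as a block, Benjamini-Hochberg over 16362 genes, threshold 0.05). The SE comes from the 5 paired differences in log2 CPM, computed with a prior count of 2. On simulated counts for this comparison (15967 genes), 85.4% to 94.0% of genes changed by 2 on the log2 scale and 51.0% to 56.0% of those changed by 1 were called. DESeq2 1.42.0, other normalizations, filters, a rod covariate, no block and leaving out each mouse were alternatives. FPKM used merged exons. Open reading frames were aligned with Biopython 1.88.

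The members and lists were chosen with earlier results of these data known. Named genes were the members, Acoxl, Nfe2l2, the 5 most like Acox2 by each measure and, per list, up to 5 genes past the threshold with the same sign in 5 mice and the 2 most abundant. Best1, Cyp7a1, Cyp7b1, Baat and the overlapping genes were added after their values were seen. Some genes of the lists are not reported here and were left out of the list counts.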

Additional observations from a re-analysis of the deposited data

Results flagged for a closer look

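In groups of 5 eyes, 2 values of TMM-scaled log2 CPM (prior count 2) stood far from the other 4 of their group. The check covered 70 groups, where chance gives about 1 in 20, or 3.5. Mff, a gene of peroxisome and mitochondrial fission, had 6.91 on this scale in the control eye of mouse 5, where the other control eyes had 7.18 to 7.25. In CPM without TMM scaling this eye had 117, below the 139 to 151 CPM of the others. Rxra, the receptor that pairs with the PPARs, had 6.60 on this scale in the Nrf2 eye of mouse 4, where the other Nrf2 eyes had 6.79 to 6.85. In CPM without TMM scaling this eye had 101, near the lower end of the 105 to 120 CPM of the others.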

How the results depend on the processing

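Hsd3b7, Pex11a and Angptl4 kept direction and call in all 12 alternative fits. Over all genes 1823 were called by DESeq2, 415 with the rod covariate and 584 to 857 with a mouse left out. With no replicate block, the fit that ignores the paired eyes, 755 were called. There the peroxide list had 1 gene, the PPAR list 1 and the mitochondrial list 1, and no other list count changed. With the rod covariate the ether lipid list had 0, the peroxide list 1, the PPAR list 2 and the mitochondrial list 1. DESeq2 called 2 of the 8 genes and 1 of the later steps, Scp2. With a mouse left out, counts were 0 to 1 for ether lipid, 1 to 2 for peroxide and 0 to 3 for mitochondrial genes. The longest transcript as length put Acox3 in position 4, Amacr in 5 and Ehhadh in 6. Signs turned only among small fold changes. Acaa1b (0.033) and Hsd17b4 (-0.10) turned with the rod covariate, and Cpt1a with no block (0.014) and with library totals only (0.0071). With a mouse left out, the sign turned in at least 1 fit for Acaa1b (-0.42 to 0.099), Acsl1 (-0.17 to 0.064), Amacr (-0.24 to 0.016), Cpt1a (-0.068 to 0.12), Hsd17b4 (-0.031 to 0.13), Mff (-0.17 to 0.011) and Prdx5 (-0.097 to 0.14). The causes were not tested. Depth limits Acoxl, Acaa1b and Acox2 in control eyes.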
